A study of Mus musculus with 4 samples.

Results

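The heat shock proteins and their DnaJ, chaperonin and Bag partners were compared between spleens lacking the transcription factor Nrf2 and wild-type spleens. Members were all probe sets, the sets of short probes that read 1 transcript, whose single gene symbol on the array begins with the family names Hsp, Dnaj, Cct or Bag. The endoplasmic reticulum (ER) chaperones Hspa5 and Hsp90b1, and the proteoglycan genes named Hspg, were left out. This gave 85 probe sets for 57 genes, out of 10833 single-symbol probe sets for 8251 genes. Of these, 66 probe sets for 50 genes were bright enough to test. Another 2 probe sets were shared by Dnajc19 and its pseudogene and were not used, and the constitutive Hsp90 gene Hsp90ab1 was not analysed here.

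Total RNA came from spleens of female mice aged 5 months, with 2 arrays of nrf2 -/- animals (knockout) and 2 of nrf2 +/+ littermates (wild type). Both genotypes descended from heterozygotes, bred from a wild-type C57B6/SJL and a knockout C57B6/129SVJ parent stock, so alleles of those strains may segregate in both groups. The labels name no treatment, and they place this age before severe autoimmune disease sets in. They do not say whether an array holds 1 animal or a pool, so the p-values cover the spread among these 4 arrays alone, which can be technical.

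Chaperones bind unfolded proteins and help them fold or pass them on for breakdown. Hsp70 proteins do this in cycles of ATP hydrolysis that J-domain proteins of the DnaJ classes stimulate and that Bag proteins help to reset by releasing nucleotide. Hsp90 finishes the folding of kinases and hormone receptors, and the CCT ring folds actin and tubulin. Under heat or oxidative stress the heat shock factor Hsf1 induces several of these genes through heat shock elements in their promoters, a route separate from the antioxidant element bound by Nrf2.

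The targeted gene checked the labels. The Nrf2 gene itself, Nfe2l2, gave intensities of 202 (replicate 1) and 178.6 (replicate 2) in knockout spleen, and of 3537 and 6321 in the wild-type pair. Values of 4 arrays are given in that order throughout. Wild-type replicate 1 stood apart. Its Pearson correlation with the other arrays across tested probe sets was 0.849 to 0.851, where the other 3 correlated with each other at up to 0.947, and genes are not independent replicates. The Gapdh control probe sets, which compare the 3' with the 5' end of the transcript as a sign of RNA integrity, gave a ratio of 88.3 there and of 8.07 to 34.8 on the others. The same ratio of the beta-actin control was 14.4 there, inside the 8.86 to 19.3 of the others. Wild-type replicate 2 had the lowest ratio of both controls, 8.07 for Gapdh and 8.86 for beta-actin. The knockout arrays gave 25.5 and 34.8 for Gapdh and 19.3 and 16.1 for beta-actin. The part of these differences in the member values was not tested. The plot of member differences gives each member with and without wild-type replicate 1. Values without it compare the knockout arrays with wild-type replicate 2 alone.

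No chaperone gene passed the test between genotypes. Of 66 tested member probe sets 0 had an adjusted p under 0.05 (limma, adjusted over all 7453 probe sets), where 0.0537% of all tested probe sets did. An unadjusted p under 0.05 was also reached by 0 members, against 1.74% of all tested probe sets, a share that would amount to 1.15 of 66. The direction was evenly split, with 33 members measuring higher and 33 lower in knockout spleen. Their median difference was 0.0086 on the log2 scale, beside 0.042 over all tested probe sets, and single members ranged from -0.86 to 1.01.

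The precision of these values sets what they can show. The median standard error of a member was 0.46 on the log2 scale, with 2 arrays per group. The 95% confidence interval lay within a 4-fold difference in either direction for 59 of the 66 members, but within a 2-fold difference for only 2. At that standard error an unadjusted p of 0.05 needs a difference of 1.07, so changes under 2-fold in a single chaperone gene were not detectable for most members. The adjusted p asked for more. Among marker genes read on the same arrays, Prm1 at 3.69 and Prss2 at -4.28 had an adjusted p of 0.0560 and 0.303 in limma. A member without a call may therefore differ by more than 2-fold. In whole spleen, fewer cells of a type and less RNA per cell cannot be told apart.

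**Figure D1:**
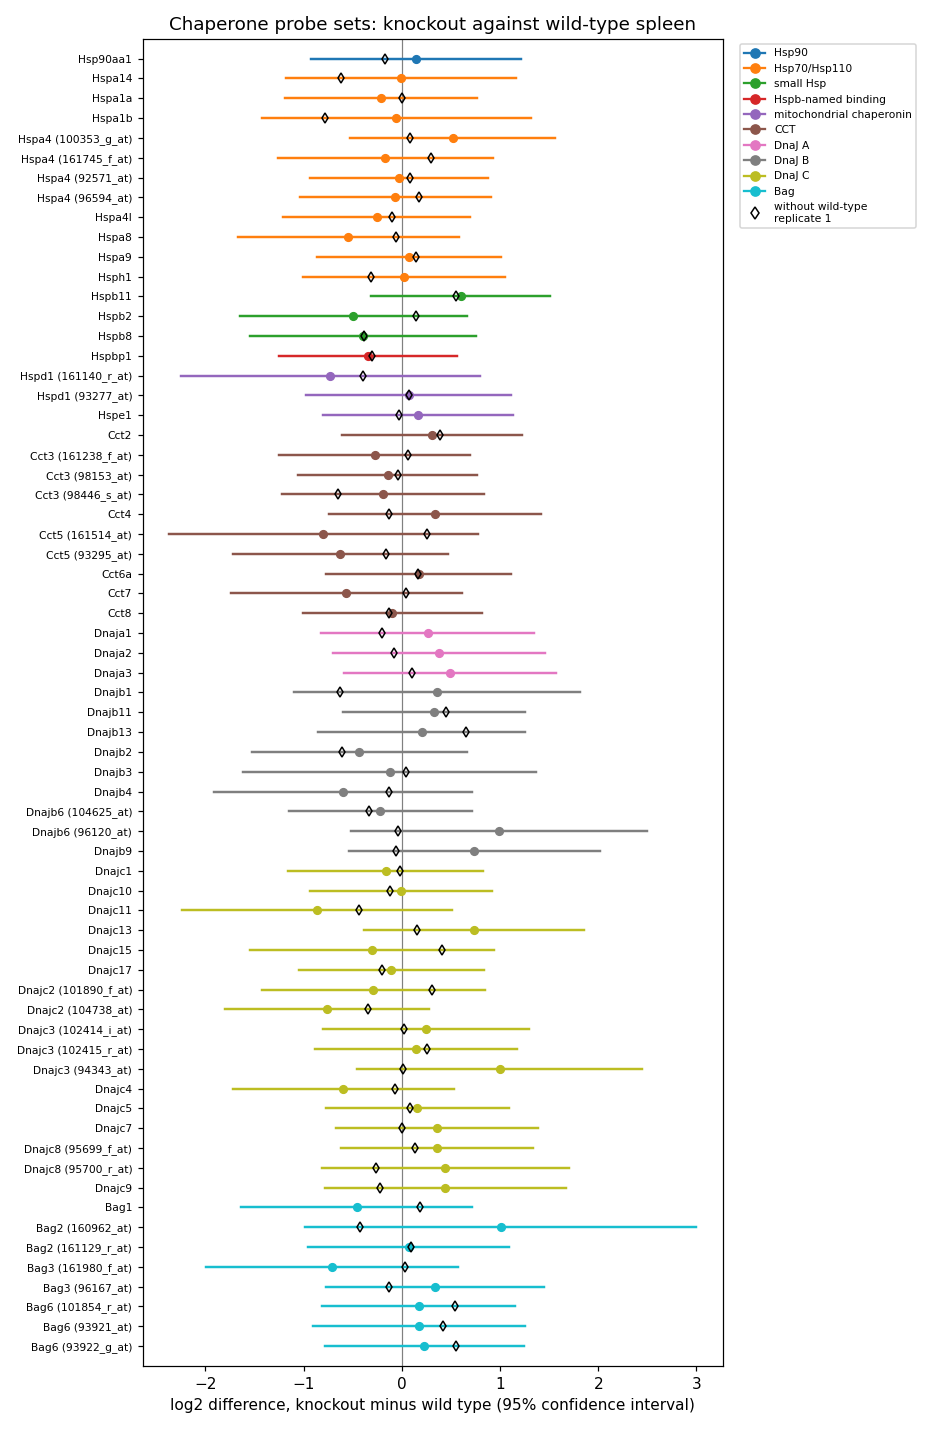
Log2 difference, knockout minus wild type, of the 66 tested member probe sets (dots, 2 arrays per group) with 95% confidence intervals, coloured by family. Open diamonds give the difference without wild-type replicate 1. All 66 intervals include 0.

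The groups did not overlap for few members. In 4 members both knockout arrays read above both wild-type arrays, where 14.3% of all tested probe sets did, and in 5 members both read below, where 12.2% did. Together this was 13.6% of members, beside 26.4% of all tested probe sets. The 4 higher ones were Hspb11, Dnajb11, Dnajc13 and 1 of 2 probe sets of Dnajc8. The 5 lower ones were Hspa8, Hspbp1, Cct8 and 1 of 2 tested probe sets each of Cct5 and Dnajc2.

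Wild-type replicate 1 was the highest or lowest of the 4 arrays in 77.3% of members and in 76.5% of all tested probe sets. In 11 of 66 members it was over 2-fold away from the nearest other array, 6 times as the lowest and 5 times as the highest. This is 16.7%, near the 15.4% of all tested probe sets. Knockout replicate 1 did so in 2 members, below in both, and knockout replicate 2 and wild-type replicate 2 in 0. The median member differed 1.66-fold between both wild-type replicates and 1.27-fold between both knockout replicates. The map of member values by array shows this spread.

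**Figure D2:**
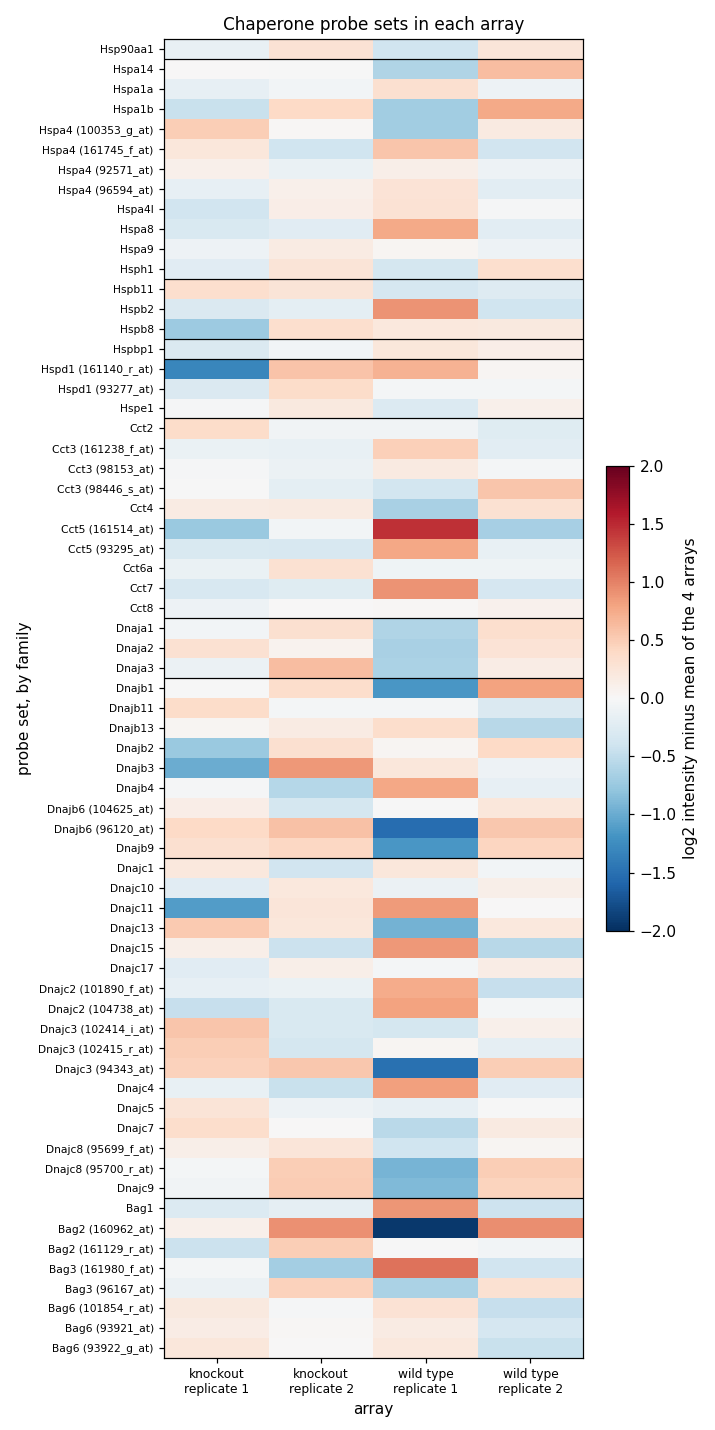
Log2 intensity of each tested member probe set (rows, ordered by family, lines between families) in each of the 4 arrays (columns), minus its mean over the arrays. Red is above and blue below the mean. In wild-type replicate 1 deep blue marks Bag2, Dnajb6 and Dnajc3 and deep red Cct5, each on 1 of their probe sets. In knockout replicate 1 blue marks Dnajc11 and 1 probe set of Hspd1.

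Hsp90 and the stress-inducible Hsp70 genes come first. Hsp90aa1, the inducible cytosolic Hsp90, read 38488 and 52203 on the knockout arrays and 32414 and 50650 on the wild-type ones. The groups overlapped, and the difference was 0.15 (SE 0.46, 95% confidence interval -0.92 to 1.21) and -0.18 without wild-type replicate 1. Another Hsp90aa1 probe set was too dim to test, at 58 and 9.7 on the knockout arrays and 260.8 and 78.5 on the wild-type ones. Both knockout arrays were lower there, and only wild-type replicate 1 exceeded 184.4, the floor set for dim values. Hspa1b, an inducible Hsp70, read 725.5 and 1297 on the knockout arrays and 610.3 and 1667 on the wild-type ones. The lowest and the highest value both came from wild-type arrays, and the difference was -0.056 (SE 0.59). It was -0.78 without wild-type replicate 1, 0.67 without wild-type replicate 2, 0.36 without knockout replicate 1 and -0.48 without knockout replicate 2.

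Hspa1a, the neighbouring inducible Hsp70 gene, read 969.6 and 1043 on the knockout arrays and 1356 and 1005 on the wild-type ones. Here wild-type replicate 1 was the highest array, while it was the lowest for Hspa1b, and the difference was -0.22 (SE 0.42), or 0.00026 without that array. These genes are near-identical copies, so their probe sets can share signal and either level is uncertain. Their promoters show the likeness: of the 250 bases before the start, 247 are equal. The stretches that hold a short heat shock element are printed because they are the same in both copies. They come from the RefSeq promoter table of GRCm38.p6 and lie on the minus strand, at chr17:34972213-34972300 for Hspa1a and chr17:34959295-34959382 for Hspa1b. They are written 5′ to 3′ along the gene, with the element in capitals.
Hspa1a: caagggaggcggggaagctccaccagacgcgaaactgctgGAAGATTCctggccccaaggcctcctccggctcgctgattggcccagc
Hspa1b: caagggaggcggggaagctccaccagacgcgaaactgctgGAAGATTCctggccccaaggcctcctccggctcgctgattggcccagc

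The constitutive Hsp70 genes gave no difference past the test either. Hspa8, which encodes the abundant housekeeping Hsc70, read 37908 and 39987 on the knockout arrays and 79531.5 and 40583 on the wild-type ones. The groups did not overlap, but wild-type replicate 2 lay close to knockout replicate 2. The difference was -0.55 (SE 0.49) and -0.060 without wild-type replicate 1. Hspa9, the mitochondrial Hsp70, read 15346 and 18460 against 16809 and 15238, a difference of 0.073 (SE 0.41).

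The Hsp110 genes act as nucleotide exchange factors of Hsp70. Hsph1 read 8990 and 12564 on the knockout arrays and 8247 and 13242 on the wild-type ones, so the replicates of each genotype differed more than the genotypes did (0.024, SE 0.44, with the sign turned under quantile scaling and median centring). Without wild-type replicate 1 it was -0.32. Hspa4, also of the Hsp110 type, had 4 tested probe sets with differences from -0.17 to 0.52. Hspa4l differed by -0.26 (SE 0.41) and Hspa14, a ribosome-linked Hsp70, read 1152.5 and 1140 against 754.8 and 1759. Of the 11 tested probe sets of the Hsp70 and Hsp110 genes, 3 measured higher and 8 lower, with a median of -0.056. Hspa1l and Hspa2, known from testis, were too dim to test.

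**Figure D3:**
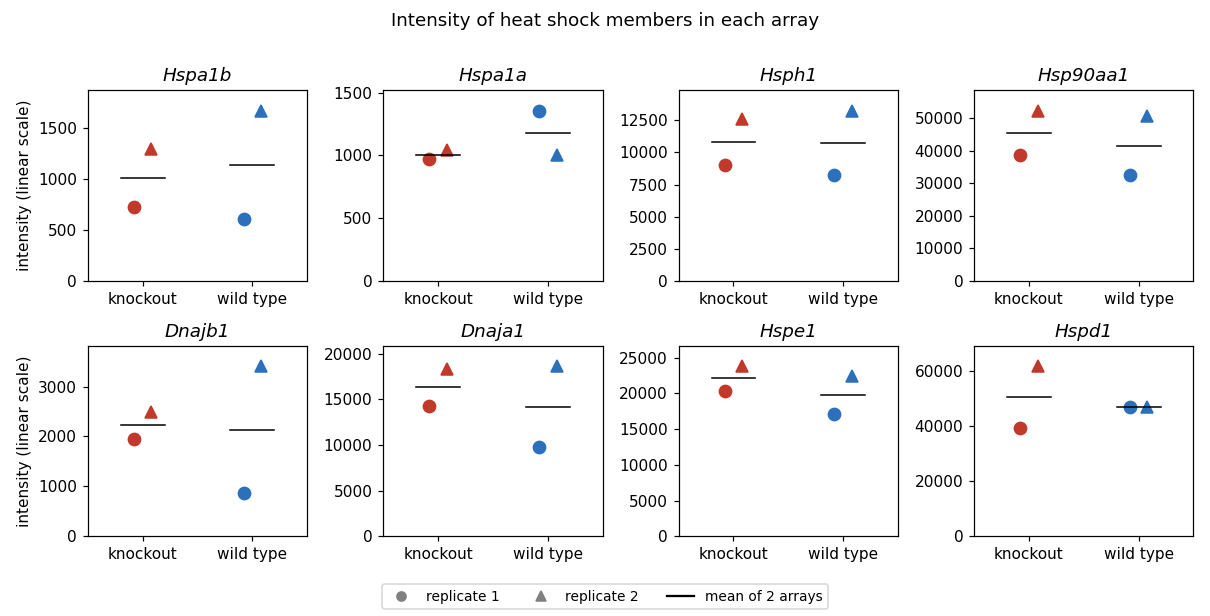
Intensity on a linear scale of 8 heat shock members in each array, with circles for replicate 1, triangles for replicate 2 and a line at the mean of 2 arrays. In 6 of the 8 (Hspa1b, Hsph1, Hsp90aa1, Dnajb1, Dnaja1 and Hspe1) both triangles lie above both circles, and the genotypes overlap.

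Several of the inducible genes were ordered by replicate number and not by genotype. In Hsp90aa1, Hspa1b, Hsph1, Hspe1, Dnaja1, Dnajb1 and 1 of 2 tested Bag3 probe sets, both arrays labelled replicate 2 read above both labelled replicate 1. This order was noticed in the values. It held in 19 of 66 members (28.8%) and in 19.4% of all tested probe sets, and the opposite order in 14 members (21.2%) and 19.3%. The labels do not tie equal replicate numbers to a shared litter, day or batch. Hspa1a and Hspd1 did not show this order. The other tested Bag3 probe set had the opposite one, with 3407 and 7444 on the replicate 1 arrays and 2190 and 2675 on the replicate 2 arrays.

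The mitochondrial chaperonin is a cage of Hspd1 (Hsp60) closed by Hspe1 (Hsp10). Hspd1 read 39321 and 61877 on the knockout arrays and 47110 and 47021 on the wild-type ones, a difference of 0.068 (SE 0.45). Its other probe set read 343 and 1255 against 1366 and 865.5 (-0.73, SE 0.66), with knockout replicate 1 lowest on both. Hspe1 read 20384 and 23776 against 17167 and 22413, a difference of 0.17 (SE 0.42) that was -0.026 without wild-type replicate 1. The groups overlapped on all 3 probe sets.

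Hspd1 and Hspe1 lie head to head on opposite strands and share the stretch between them. It is printed because 1 run of heat shock elements lies in the promoter windows of both, 89 bases before the Hspe1 start and 144 before an Hspd1 start. The motif searched was GAA, 2 free bases, TTC, 2 free bases and GAA, or its reverse complement. Of 57 member genes 49 had a RefSeq promoter window by symbol. Hsp90aa1, Hspa8, Hspa9, Hspb2, Cct4, Dnajc2, Dnajc5 and Dnajc11 had none and were not searched. The motif was held on either strand by 4 of the 49, with the run shared by Hspd1 and Hspe1 counted for both. That is 8.16%, beside 0.662% of the 27025 genes in the table. The shorter motif, of which the longer one is made, was GAA, 2 free bases and TTC, or TTC, 2 free bases and GAA. It was in 15 members (30.6%) and in 17.0% of all genes. The 4 were Hspd1, Hspe1, Dnajb6 and Hsph1, and in Hsph1 the match lay after the start, so it is not printed. The first stretch is chr1:55088019-55088116 on the plus strand, written in the direction of Hspe1, and the other is chr5:29735812-29735897 on the plus strand. Both are of GRCm38.p6, with the matches in capitals. A match is a description of letters, not a measured binding site.
Hspd1-Hspe1: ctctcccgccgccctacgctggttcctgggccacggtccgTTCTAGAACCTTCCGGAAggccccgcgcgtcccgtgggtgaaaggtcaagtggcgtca
Dnajb6: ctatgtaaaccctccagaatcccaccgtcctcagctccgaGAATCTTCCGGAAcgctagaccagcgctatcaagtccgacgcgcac

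None of these 4 genes passed the test. Dnajb6, a J protein that suppresses aggregation, read 12025 and 13681 on the knockout arrays and 3151 and 13204 on the wild-type ones on 1 probe set. Only wild-type replicate 1 was low, and the difference of 0.99 (SE 0.65) was -0.042 without it. The other Dnajb6 probe set read 3417 and 2421.5 against 3088 and 3630, a difference of -0.22 (SE 0.40), with wild-type replicate 1 inside the range of the others.

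The small heat shock proteins hold unfolded proteins without ATP. Hspb1, the best known of them, read 9 to 115 over the 4 arrays, below the floor of 184.4 that was set for dim values. Hspb8, a partner of Bag3 in selective autophagy, read 552 and 1150 on the knockout arrays and 1055 and 1041 on the wild-type ones, with knockout replicate 1 low (-0.40, SE 0.50). Hspb2, a muscle form, read 3035 and 3230 against 6893 and 2824.5, and its difference of -0.50 was 0.15 without wild-type replicate 1.

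Hspb11 carries the family name but encodes a subunit of intraflagellar transport. It read 1744 and 1658.5 on the knockout arrays and 1090 and 1157 on the wild-type ones. Both knockout arrays were higher, and the difference was 0.60 (SE 0.39, unadjusted p = 0.166 and adjusted p = 0.992 in limma). It ranged from 0.56 to 0.64 with 1 array left out, so its size did not rest on a single array. Hspbp1, a nucleotide exchange factor of Hsp70, read 1307 and 1533 against 1858 and 1744, and its difference of -0.35 (SE 0.39) ranged from -0.46 to -0.23 with 1 array left out.

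Of the CCT ring 7 genes were tested by 10 probe sets, 3 higher and 7 lower in knockout spleen, with a median of -0.17 that was 0.0057 without wild-type replicate 1. Cct5 read 27791 and 27785 on the knockout arrays and 59151 and 31051 on the wild-type ones, a difference of -0.63 (SE 0.47). Its other probe set read 3061 and 4947.5 against 14102 and 3253 (-0.80, SE 0.68). Cct7 read 18303 and 19346 against 42585.5 and 18229 (-0.57, SE 0.51).

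In these CCT probe sets wild-type replicate 1 was the highest array. Without it the differences were -0.16 and 0.26 for Cct5 and 0.046 for Cct7. The ring was not uniform in that array: Cct4 read 12276 there, the lowest of the 4, beside 21518 and 21626 in knockout spleen and 23651 in wild-type replicate 2. Cct8 read 11650 and 12533 against 12632 and 13194 (-0.095, SE 0.40) and Cct2 3008 and 2224 against 2224.5 and 1973 (0.30, SE 0.40). The 3 Cct3 probe sets differed by -0.28 to -0.14 and Cct6a by 0.17. The testis form Cct6b was too dim to test.

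The class A J proteins, the closest relatives of bacterial DnaJ, all measured higher in knockout spleen without passing the test. Dnaja1, a cytosolic partner of Hsc70, read 14277 and 18390 against 9795 and 18633 (0.26, SE 0.47). Dnaja2 read 1489 and 1265 against 767.8 and 1453 (0.38, SE 0.47), and the mitochondrial Dnaja3 read 3960 and 6566 against 2762 and 4756 (0.49, SE 0.47). Wild-type replicate 1 was the lowest array for all 3, and their median of 0.38 was -0.082 without it.

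Among class B, Dnajb1, the stress-inducible Hsp40, read 1946 and 2497 on the knockout arrays and 872.8 and 3404 on the wild-type ones. Both extremes were wild-type arrays, and the difference of 0.35 (SE 0.63) was -0.63 without wild-type replicate 1. Dnajb4 differed by -0.60 (SE 0.57) and Dnajb2, a neuronal-type J protein, by -0.43 (SE 0.47), and without that array by -0.13 and -0.61. Knockout replicate 1 was low for Dnajb2, at 1400.5 beside 2414.9 to 3095 on the other arrays. Without knockout replicate 1 the Dnajb2 difference was 0.10. Of 9 tested class B probe sets 5 measured higher and 4 lower, with a median of 0.20. The testis-linked Dnajb13 and Dnajb3 differed by 0.20 and -0.13. The other Dnajb13 probe set was too dim for the filter, and at 306.6 and 285.9 on the knockout arrays and 459.7 and 449.3 on the wild-type ones it went the other way, with both knockout arrays lower. Without the filter its difference was -0.62 (SE 0.115, limma unadjusted p = 0.0147 and adjusted p = 1). That SE is small beside the median of 0.46 for the tested members. Dnajb5 and Dnajb8 were too dim to test.

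J proteins of the ER serve Hspa5. Dnajb9 read 2277 and 2437 on the knockout arrays and 813.6 and 2447 on the wild-type ones, and its difference of 0.74 (SE 0.55) was -0.055 without wild-type replicate 1. Dnajc3, which is also an inhibitor of the kinase PERK, had 3 tested probe sets. The first read 2689 and 2817 against 695.3 and 2739, a difference of 0.996 (SE 0.63) that was 0.0070 without wild-type replicate 1. The other 2 gave 0.25 and 0.14, and there wild-type replicate 1 was close to or inside the range of the other arrays. Without wild-type replicate 1 these 2 differed by 0.023 and 0.26. Knockout replicate 1 was the highest array on both, and without it they differed by -0.18 and -0.28. Dnajb11 read 7710 and 5837 against 5815 and 4926, with the groups barely apart (0.33, SE 0.40). Dnajc10, an ER disulfide reductase, differed by -0.0071 (SE 0.40). Over the 7 tested probe sets of 5 ER genes, with Dnajc1, 5 measured higher, and the median of 0.25 was 0.0070 without wild-type replicate 1.

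Class C holds J proteins of many compartments, and 9 of its 17 tested probe sets measured higher and 8 lower (median 0.14). Dnajc2, a ribosome-bound cochaperone of nascent chains, had the smallest p of all tested members. It read 9520 and 10605 on the knockout arrays and 22745 and 12785 on the wild-type ones. Both wild-type arrays were higher, and the difference was -0.76 (SE 0.45, unadjusted p = 0.128 and adjusted p = 0.992 in limma). It was -0.35 without wild-type replicate 1. The other Dnajc2 probe set differed by -0.29 (SE 0.49), with overlapping groups.

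Dnajc13, an endosomal J protein, read 3631 and 2954 on the knockout arrays and 1313 and 2943 on the wild-type ones. Wild-type replicate 2 was almost level with knockout replicate 2, and the difference of 0.74 (SE 0.48) was 0.15 without wild-type replicate 1. Dnajc11, of the mitochondrial inner membrane organising complex, read 368.1 and 944.2 against 1440.5 and 799.5. Knockout replicate 1 was low here, and the difference of -0.86 (SE 0.59) was -0.18 without it. The remaining class C members, among them the synaptic vesicle protein Dnajc5 and the Hsp90-linked Dnajc7, ranged from -0.59 to 0.44.

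Bag proteins couple Hsp70 to survival and degradation pathways. Bag1, which links Hsp70 to the proteasome, read 7391 and 7852 on the knockout arrays and 16397 and 6710 on the wild-type ones (-0.46, SE 0.51), and the difference was 0.18 without wild-type replicate 1. Bag3, which links it to autophagy, had 2 tested probe sets of opposite sign. One read 3407 and 2190 against 7444 and 2675 (-0.71, SE 0.55), the other 1265 and 1900 against 887.6 and 1697 (0.34, SE 0.48). Wild-type replicate 1 was the highest array on the first and the lowest on the second, and without it the differences were 0.030 and -0.13.

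Bag2, an inhibitor of the ubiquitin ligase that acts on Hsp70 clients, had the largest difference of any tested member. It read 941.1 and 1653 on the knockout arrays and 230.1 and 1678 on the wild-type ones, a difference of 1.01 (SE 0.86, limma adjusted p = 0.992). It was -0.43 without wild-type replicate 1 and 0.48 with the floor for dim values at the 40th percentile, and the other tested Bag2 probe set gave 0.069 (SE 0.44). Another Bag2 probe set was too dim for the filter. It read 555.5 and 581 on the knockout arrays and 187 and 375.3 on the wild-type ones, so both knockout arrays were higher. The 3 tested probe sets of Bag6, which guides membrane proteins, differed by 0.17 to 0.23. Of 11 member genes with more than 1 tested probe set, 4 had probe sets of opposed sign: Bag3, Dnajb6, Hspa4 and Hspd1.

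Leaving out an array did not give a call among the members, and none had an adjusted p under 0.05 in any of these 4 fits. In such fits the lone array is assumed to vary like the others. Unadjusted p under 0.05 was reached by 0 members without wild-type replicate 1, 0 without knockout replicate 1 and 0 without knockout replicate 2, where 3.06%, 1.25% and 1.95% of all tested probe sets did. Without wild-type replicate 2, which leaves wild-type replicate 1 as the only control, 21 members (31.8%) reached it, 10 higher and 11 lower. This share lies near the 29.4% of all tested probe sets, and the smallest adjusted p of a member was 0.0580.

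**Figure D4:**
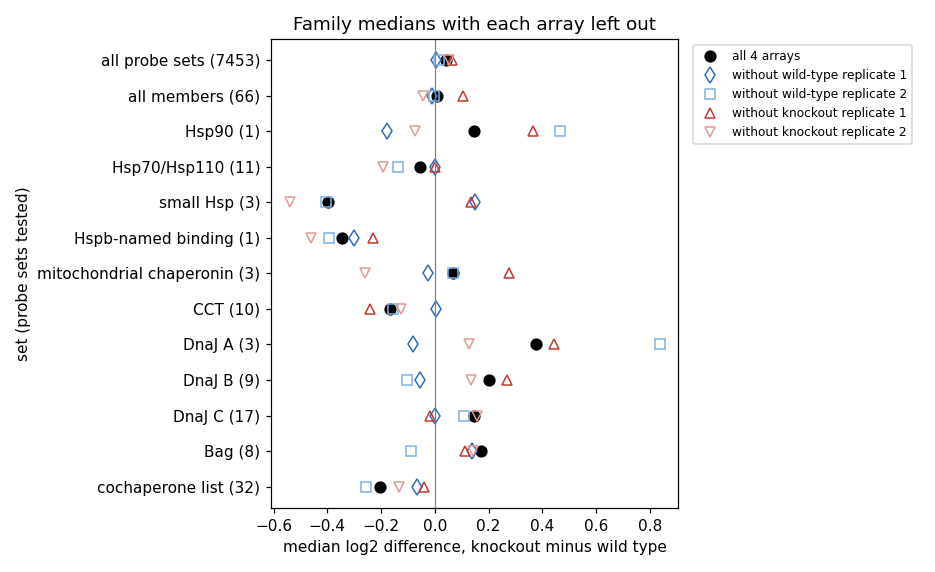
Median log2 difference, knockout minus wild type, of each family (number of tested probe sets in brackets), with all 4 arrays and with each array left out. The class A DnaJ median runs from -0.082 to 0.84, and the median of all 66 members from -0.042 to 0.11.

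Other genes of the chaperone machinery were taken from a list without members. Of its 32 tested probe sets 12 measured higher (37.5%) and 20 lower (median -0.20), where 53.7% of all tested probe sets measured higher. An adjusted p under 0.05 in limma was reached by 0, beside 0.0537% of all tested probe sets. An unadjusted p under 0.05 was reached by 1, beside 1.74%. That one was Fkbp8, a mitochondrial immunophilin that binds Hsp90, at 3897 and 4640 on the knockout arrays and 9511 and 8182 on the wild-type ones. Both wild-type arrays were higher, and the difference was -1.05 (SE 0.39, limma unadjusted p = 0.0286 and adjusted p = 0.992). It stayed between -1.18 and -0.93 with 1 array left out, in fits where 1 group rests on a single array. No tested member of the chaperone families had so small an unadjusted p in the limma fit of all 4 arrays.

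Grpel1, the nucleotide exchange factor of mitochondrial Hsp70, differed by -0.81 (SE 0.46), and by -0.61 without wild-type replicate 1. The prefoldin genes Vbp1 and Pfdn2, which feed the CCT ring, differed by 0.92 and 0.77, and by -0.072 and -0.062 without wild-type replicate 1. Stip1, which bridges Hsp70 and Hsp90, read 3275 and 3181 against 3768 and 4185 (-0.30, SE 0.38, or -0.37 without wild-type replicate 1). Tcp1, the CCT subunit whose symbol falls outside the rule, read 2263 and 2006 against 2835 and 2373 (-0.28, SE 0.39, or -0.16 without it). The heat shock factor genes Hsf2 and Hsf4 were too dim to test, and Hsf1 was not analysed here.

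The members that were too dim to test were 19 probe sets, and 7 genes had no other: Hspa1l, Hspa2, Hspb1, Cct6b, Dnajb5, Dnajb8 and Dnajc21. Dnajc21, a ribosome biogenesis J protein, read 131.9 and 116.2 on the knockout arrays and 262.2 and 319.3 on the wild-type ones, so the groups were separate at low signal. It was chosen here after its values were seen.

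Cell type markers were read on the same arrays, and 0 of their probe sets had an adjusted p under 0.05 in limma. Every measured B cell, T cell, red pulp macrophage, erythroid and neutrophil gene had at least 1 probe set above the floor on some array. All 8 tested neutrophil probe sets measured higher in knockout spleen, and Elane had an unadjusted p under 0.05 in limma. The summed intensity of the 8 was 471119 and 536272 against 688310 and 165998, so the wild-type arrays held both extremes of the sum. B cell and T cell probe sets each measured higher in 1 and lower in 4 of 5, red pulp macrophage ones higher in 5 and lower in 2, and erythroid ones lower in 5 of 5. The groups did not overlap in 4 neutrophil, 2 B cell, 3 T cell, 2 red pulp macrophage and 0 erythroid probe sets. Over all tested probe sets this share was 26.4%. The 4 neutrophil ones were both Mpo probe sets, Elane and Camp, each higher in knockout spleen. The tested Adgre1 probe set (1.69) was low only on wild-type replicate 1, and Rhd (-1.33) only on knockout replicate 1. Of the T cell genes Cd8a (-0.94) and Cd3d (-1.08) had an unadjusted p under 0.05. Exocrine pancreas probe sets measured lower in 6 of 7, each of the 6 with an unadjusted p under 0.05. Their summed intensity was 9371 and 10934 in knockout spleen and 82139 and 21239 in wild type. The 1 tested liver probe set, Alb, measured lower (-2.27, limma unadjusted p = 0.0191). Of 2 tested testis probe sets Prm1 read 3001 and 2700 on the knockout arrays and 265.3 and 126 on the wild-type ones (3.69, limma adjusted p = 0.0560), and Tnp1 differed by -0.0035. Immediate early genes such as Fos and Egr1, which respond to stress and handling, measured higher in 15 of 17 tested probe sets (median 0.29), with 0 at an unadjusted p under 0.05. Of all tested probe sets 53.7% measured higher. The groups did not overlap in 3 of these 17, beside 26.4% of all tested probe sets. The part of these markers in the chaperone values was not tested.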

How the data were processed

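The deposited values are 1-colour array intensities on a linear scale, 1 per probe set and array. For the authors' software and scaling the answer is: not given in the sources used here. Since the 2% trimmed means of the 4 arrays lay between 2501.5 and 2502.0, the intensities were used as deposited. Values below the pooled 25th percentile (184.4) were raised to it and log2 was taken, which understates differences of dim genes. The 66 control probe sets were left out, and the 7453 of 12422 with a mean above the 40th percentile were tested with limma 3.58.1 in R 4.3.3 (lmFit and eBayes with intensity trend, two-sided, Benjamini-Hochberg at 0.05). The procedure was tested on simulated data. An exact permutation test of 2 against 2 arrays cannot go below 0.333 and was not used.

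Symbols came from the platform annotation, and all 85 members matched RefSeq gene identifiers. Promoters, matched by symbol, ran from 250 bases before to 50 after the start. Named were members with an unadjusted p under 0.05, up to 4 per family by smallest p, and well-known members with all their tested probe sets. Dim probe sets of named genes are given for some genes only. Members, lists and rules were chosen with earlier results of these data known. Other members are named as examples, after their values were seen. Alternatives were another scaling, floor, pseudocount, filter, trend or choice of probe sets, the replicate block, and each array left out. Figures used matplotlib 3.10.9.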

Additional observations from a re-analysis of the deposited data

How the results depend on the processing

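No member had an adjusted p under 0.05 in any of the 14 alternatives run, and for the 43 named member probe sets none came under 0.05. Among these, 3 of 402 values outside the fits with an array left out turned their sign (Hspa4 once, Hsph1 under quantile and median scaling), and 36 of 172 with an array left out. The count over all probe sets, 4, became 0 when none was filtered out, 36 with the replicate block, 2 without marked probe sets (those named _s, _f, _r or _i) and 3 to 13 with an array left out. Equal replicate numbers are not tied by the labels, and the correlation of their deviations was 0.040. For the fits with the replicate block and without the filter, the share of all probe sets with an unadjusted p under 0.05 is not given here. Without the filter the SE was 0.115 for Dnajb13 and 0.120 for Dnajc21, beside a median of 0.46 for the tested members. With the replicate block 1 member (Dnajc3) had an unadjusted p under 0.05 (0.0497 in limma), and without the filter 2 dim ones did (Dnajb13 and Dnajc21). This count was 0 to 21 with an array left out. The cochaperone list's count of 1 was 4 without the filter and 0 to 12 with an array left out. The members' median was -0.050 with median centring, 0.073 with the 60th percentile filter, and -0.042 to 0.11 with an array left out. Without the filter the medians were 0 for small Hsp, -0.063 for DnaJ B and -0.043 for DnaJ C. With the 60th percentile filter they were 0.052 for small Hsp and 0.25 for DnaJ C. For DnaJ C the median was -0.0071 without marked probe sets and with 1 probe set per gene, and for Bag it was -0.20 with 1 probe set per gene. With an array left out the medians ran from -0.54 to 0.15 for small Hsp, -0.24 to 0.0057 for CCT, -0.10 to 0.27 for DnaJ B, -0.019 to 0.16 for DnaJ C, -0.082 to 0.84 for DnaJ A, -0.18 to 0.47 for Hsp90, -0.26 to 0.28 for the mitochondrial chaperonin, -0.088 to 0.14 for Bag and -0.19 to 0.00026 for Hsp70 and Hsp110, each with a sign turn, and from -0.46 to -0.23 for Hspbp1, with none. The Hsp90 median was -0.052 without the filter. The causes were not tested, apart from the filter, which changes which probe sets enter.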
